A study of Homo sapiens with 19 samples.

Results

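The arrangement of 2 states of methylation on lysine 4 of histone H3, dimethylation (H3K4me2) and trimethylation (H3K4me3), was described in vehicle-treated MOLM-13 cells from 4 CUT&RUN libraries: 2 against H3K4me2 and 2 against H3K4me3, all from cells given the vehicle DMSO. These 4 were chosen by antibody and treatment from the 19 libraries of the series, of which 12 have a peak list. MOLM-13 is an established human acute myeloid leukaemia line that carries a fusion of the MLL gene (KMT2A). In CUT&RUN, an antibody tethers a nuclease that cuts out the chromatin around a mark, and the freed fragments are sequenced. The cells were exposed for 24 h, and the labels give 0.1 µM also for DMSO, where its meaning is not explained. Other arms of the series received Corin, a dual inhibitor of LSD1 and histone deacetylases, with or without all-trans retinoic acid. The 2 DMSO libraries against H3K27ac (acetylation of lysine 27) and the 4 Corin libraries against H3K4me2 and H3K4me3 entered only as further readouts that had no part in defining the classes below. The labels do not say whether replicates came from separate cultures, so the spread between them may be technical.

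As background, COMPASS-type methyltransferases (the SETD1 and KMT2 enzymes) add methyl groups to H3K4 stepwise. H3K4me3 is typically densest on the first nucleosomes of active, CpG-rich promoters, while H3K4me2 extends into the promoter flanks and also marks enhancers and genes held ready in a lineage. LSD1 (KDM1A) removes mono- and dimethyl groups, and the KDM5 enzymes remove trimethyl groups.

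The canonical transcription start site (TSS) of each of 19970 protein-coding genes on chromosomes 1 to 22 and X was the unit of description. A promoter was said to have a mark when both libraries of that mark had a peak within 1 kb either side of the TSS. Both marks were present at 9626 promoters (48.2%). H3K4me2 alone was found at 1878 (9.4%), H3K4me3 alone at 37 (0.185%), and no peak of any of the 4 libraries at 7432 (37.2%). The remaining 997 (4.99%) had replicates that differed, most often a peak in H3K4me2 replicate 2 and in no other library (379 promoters) or a peak in all but H3K4me3 replicate 1 (324 promoters). At 1807 promoters (9.05%) the TSS lay under H3K4me3 in both libraries while H3K4me2 was absent from the TSS in both and present on each side within 2000 bp, an arrangement called an H3K4me2 gap here. The lists record called regions and not signal height, so an absent peak is an absent call. The list lengths differ between the marks: H3K4me2 replicates 1 and 2 had 30896 and 32299 peaks covering 33.4 and 36.6 Mb, against 11104 and 11343 peaks covering 14.2 and 15.0 Mb for H3K4me3. When each list was reduced to its 11104 highest-scoring peaks, the counts became 5305 with both marks, 681 with H3K4me2 only, 2332 with H3K4me3 only and 229 with a gap, so the counts of single-mark promoters depend on how many peaks each list holds.

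The label was checked against lineage genes. All 4 MLL-fusion target markers (HOXA9, HOXA10, MEIS1 and MEF2C) had both marks, as did 9 of 16 myeloid markers, among them SPI1, CEBPA, CD33, LYZ and FLT3. Another 3 myeloid markers had H3K4me2 only (CD14, CD68, TYROBP), MPO had replicates that differed, and CSF2RA, ITGAM and FCGR1A had no peak. None of 12 markers of other cell types had both marks. PAX5 and COL1A1 had H3K4me2 only, KRT8 and EPCAM had replicates that differed, and the other 8, including CD3E, GATA1, HBB and ALB, had no peak.

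The 250 bases upstream of the start of 5 genes are shown as examples of the classes: LARP1 and MYB for a gap inside H3K4me3, GATA3 and CTSG for H3K4me2 without H3K4me3 in a CpG-rich and a CpG-poor setting, and ZNF100 for H3K4me3 without H3K4me2. The sequences are those of RefSeq on GRCh38.p14, written 5′ to 3′ on the strand of the gene, with each CG dinucleotide in capitals. No annotated exon overlaps them.
LARP1 (chr5:154755127-154755376, plus strand): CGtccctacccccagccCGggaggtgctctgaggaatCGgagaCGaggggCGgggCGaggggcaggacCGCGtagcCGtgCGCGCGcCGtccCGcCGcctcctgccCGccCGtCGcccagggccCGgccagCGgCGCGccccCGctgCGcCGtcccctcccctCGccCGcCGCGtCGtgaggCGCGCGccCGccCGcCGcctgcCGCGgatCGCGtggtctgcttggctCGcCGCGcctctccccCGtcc
MYB (chr6:135181058-135181307, plus strand): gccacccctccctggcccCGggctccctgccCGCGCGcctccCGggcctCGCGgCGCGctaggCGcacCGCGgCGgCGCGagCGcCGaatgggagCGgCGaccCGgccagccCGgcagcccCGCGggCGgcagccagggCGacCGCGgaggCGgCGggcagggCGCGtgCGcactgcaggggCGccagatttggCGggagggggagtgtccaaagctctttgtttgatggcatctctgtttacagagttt
GATA3 (chr10:8054438-8054687, plus strand): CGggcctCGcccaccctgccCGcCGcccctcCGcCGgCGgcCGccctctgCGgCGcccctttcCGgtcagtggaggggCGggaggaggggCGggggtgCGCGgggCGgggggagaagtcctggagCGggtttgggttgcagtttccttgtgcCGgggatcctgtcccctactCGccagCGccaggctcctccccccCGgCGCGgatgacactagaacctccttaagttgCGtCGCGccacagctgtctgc
CTSG (chr14:24576251-24576500, minus strand): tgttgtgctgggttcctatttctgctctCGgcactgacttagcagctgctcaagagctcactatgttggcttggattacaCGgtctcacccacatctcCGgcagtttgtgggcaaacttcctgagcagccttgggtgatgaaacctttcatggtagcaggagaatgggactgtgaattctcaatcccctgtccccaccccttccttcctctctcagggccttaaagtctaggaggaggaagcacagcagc
ZNF100 (chr19:21767580-21767829, minus strand): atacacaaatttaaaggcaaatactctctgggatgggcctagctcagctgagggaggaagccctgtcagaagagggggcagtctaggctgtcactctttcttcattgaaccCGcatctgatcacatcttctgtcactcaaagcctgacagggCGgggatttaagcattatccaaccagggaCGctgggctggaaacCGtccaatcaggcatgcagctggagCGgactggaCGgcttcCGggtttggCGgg
LARP1 has 44 CG dinucleotides in this stretch, MYB 34, GATA3 26, ZNF100 8 and CTSG 3. A RefSeq promoter whose start lay within 100 bp of the canonical TSS was found for 14661 of the 19970 genes, and the median number of CGs over these was 19. Of the 5 examples GATA3 alone lies within the quartiles of its class in this count: LARP1 and MYB lie above the upper quartile of promoters with a gap (31), CTSG lies outside the quartiles of H3K4me2-only promoters (9.25 and 29), and ZNF100 lies below the lower quartile of H3K4me3-only promoters (11.5).

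Around the average TSS, H3K4me3 sat over the start and H3K4me2 reached beyond it on both sides. In the flanks, defined as 1 to 3 kb from the TSS, H3K4me2 covered 13.6% of bp in replicate 1 and 13.8% in replicate 2, whereas H3K4me3 covered 4.26% and 4.34%. Both H3K4me2 values lay above both H3K4me3 values, a difference of 9.42 percentage points (SD of the difference 0.146, exact two-sided permutation p = 0.333, n = 2 libraries each). That p is the smallest that 2 libraries against 2 can give. Here and below, the SD of the difference is the square root of the summed variances of the 2 marks. It refers to single libraries and not to means of 2. In the core, within 500 bp of the TSS, H3K4me2 covered 34.9% and 44.1% and H3K4me3 36.2% and 38.7%, and here the groups overlapped. The core difference of 2.06 points was smaller than the SD of the difference, 6.73 (exact permutation p = 1.0). The core difference turned to -2.52 points without H3K4me2 replicate 2 and to -13.0 points with 11104 peaks in each list. The log2 ratio of flank over core coverage was -1.36 and -1.67 for H3K4me2 and -3.08 and -3.16 for H3K4me3, a difference of 1.61 (SD of the difference 0.229, exact permutation p = 0.333, n = 2 each). With the longer lists shortened to 11104 peaks this difference was 1.81, and the flank difference was 5.40 points.

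The Corin libraries, which are separate libraries of the same line, gave the same order. In their flanks H3K4me2 covered 17.4% and 15.5% and H3K4me3 4.95% and 4.57%. With the mark permuted within each treatment over all 8 libraries, the flank difference was 10.6 points and the log2 ratio difference 1.68 (exact permutation p = 0.0556 for each, the smallest that 36 arrangements allow), while the core difference of 1.45 points had p = 0.611.

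**Figure D1:**
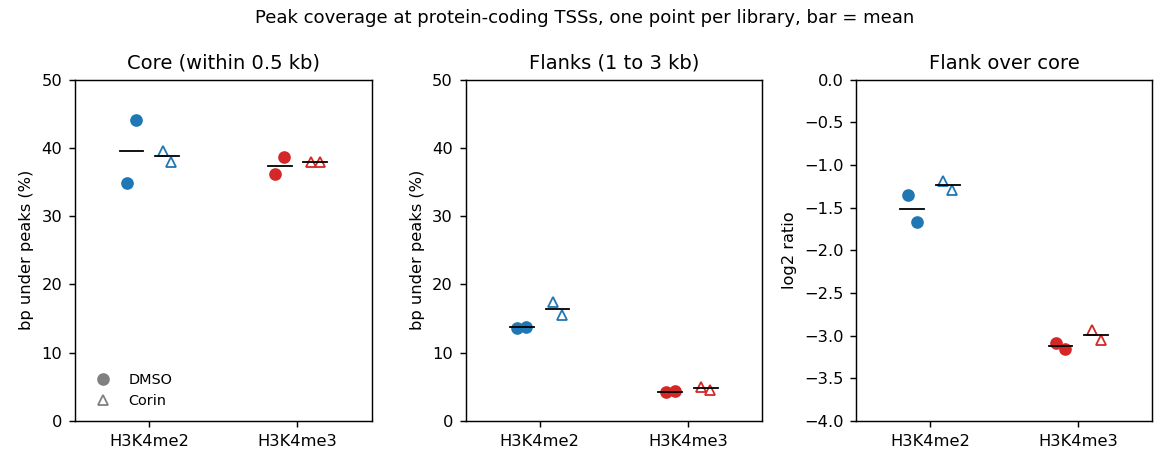
Percent of bp under peaks in the core (within 0.5 kb of the TSS) and in the flanks (1 to 3 kb), and the log2 ratio of flank over core, at 19970 protein-coding TSSs. Each point is 1 library (filled circles DMSO, open triangles Corin) and each bar the mean of 2; the marks overlap in the core and part in the flanks, where the DMSO libraries sit at 13.6% and 13.8% for H3K4me2 and at 4.26% and 4.34% for H3K4me3.

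Over all promoters, coverage was higher downstream of the TSS than upstream for both marks. In the downstream flank H3K4me2 covered 18.3% and 18.4%, against 9.0% and 9.28% upstream, a ratio of 2.03 and 1.98. For H3K4me3 the ratio was 1.76 and 1.70 (5.44% and 5.47% downstream, 3.09% and 3.21% upstream). The upstream value differed with the distance to neighbouring genes. At the 4563 promoters with both marks and no TSS of another gene within 5 kb, the upstream flank held only 7.35% and 7.64% H3K4me2 and 1.35% and 1.46% H3K4me3, with 35.5% and 35.3%, and 10.7% in both libraries, downstream. At the 3047 promoters with both marks that were divergent, with a start on the opposite strand within 1000 bp upstream, the upstream flank held 27.5% and 27.3% H3K4me2 and 9.96% and 10.1% H3K4me3. The downstream flank of these promoters held 31.8% and 31.2% H3K4me2, still above upstream, but 9.07% and 8.91% H3K4me3, below upstream, so the order of the sides was reversed for H3K4me3.

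At promoters with both marks, H3K4me2 peaked on either side of the start and dipped on it. H3K4me2 replicate 1 covered 68.3% of these promoters 400 bp upstream, 42.4% at the TSS and 83.7% 850 bp downstream. Replicate 2 covered 77.4% 250 bp upstream, 64.6% at the TSS and 85.8% 800 bp downstream, a shallower dip. H3K4me3 was highest 150 bp downstream, where it covered 94.6% and 95.9%, and it had fallen to 43.0% and 43.7% by 1000 bp, where H3K4me2 still covered 80.1% and 81.2%. Summed over 5 kb either side, these promoters carried on average 2472 and 2662 bp of H3K4me2 and 1617 and 1681 bp of H3K4me3. The difference was 917.5 bp (SD of the difference 142 bp, exact permutation p = 0.333, n = 2 each). Since the promoters were chosen from the same lists, this difference is given as a description of them.

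**Figure D2:**
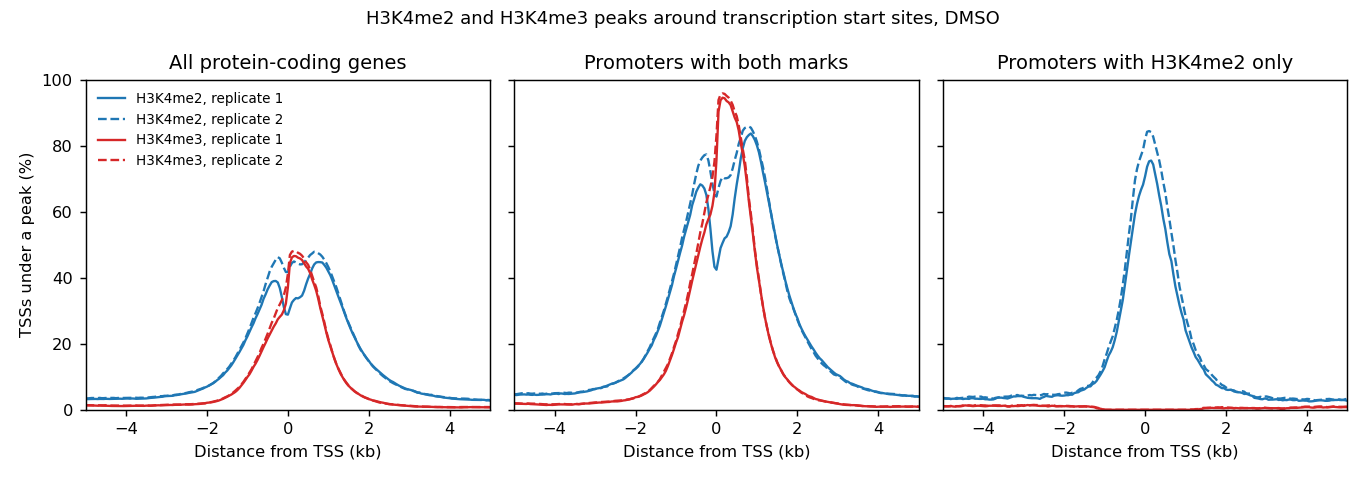
Percent of TSSs under a peak of each library against the distance from the TSS in kb (negative is upstream), for all protein-coding genes, promoters with both marks and promoters with H3K4me2 only. H3K4me2 (blue) forms shoulders on either side of H3K4me3 (red) at promoters with both marks and a single summit where H3K4me3 is absent; solid lines are replicate 1 and dashed lines replicate 2.

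The dip was found at a subset of promoters. Of the 9626 promoters with both marks, 6909 had H3K4me3 over the TSS in both libraries. Among these, 2777 had H3K4me2 over the TSS in both libraries, 2125 had it in neither, 1791 had it in replicate 2 alone and 216 in replicate 1 alone. H3K4me2 replicate 2 thus covered many starts that replicate 1 did not, and without replicate 2 the count of gaps rose from 1807 to 3436. The mirrored arrangement, a TSS under H3K4me2 in both libraries inside an H3K4me3 interruption, was found at 24 genes. Inside the 1807 gaps the H3K4me2-free stretch had a median of 869 bp in replicate 1 and 682 bp in replicate 2. Its edge lay 268 and 197 bp upstream and 556 and 436 bp downstream of the TSS, and it reached farther downstream than upstream at 1291 and 1217 of the 1807 genes.

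Gaps were more frequent under wide H3K4me3 peaks. Over the TSSs of all classes with H3K4me3 over them in both libraries, gaps made up 1.04% under H3K4me3 peaks of up to 500 bp (96 TSSs), 7.65% at 500 to 1000 bp, 16.8% at 1000 to 1500 bp, 28.4% at 1500 to 2000 bp, 40.8% at 2000 to 3000 bp and 46.0% above 3000 bp (530 TSSs). The share with an H3K4me2 peak over the TSS fell over the same bins from 72.9% to 30.0% in replicate 1 and from 89.6% to 47.5% in replicate 2, so the order holds in each library, though the levels differ. A gap needs H3K4me2 on both sides within 2000 bp, and narrow and wide H3K4me3 peaks leave different room for that. Acetylation, which did not enter the definition, was higher in each wider bin: the share with an H3K27ac peak within 1 kb went from 18.8% and 19.8% in the narrowest bin to 87.0% and 93.4% in the widest. At gap promoters with both marks (1795), H3K27ac was present at 79.7% and 86.7%, against 56.6% and 65.9% of the 2777 promoters with all 4 libraries over the TSS. Each H3K4me2 library alone gave the same order. Where replicate 1 had no peak over the H3K4me3-covered TSS of a promoter with both marks, H3K27ac was present at 70.7% and 82.1%, and where it had one at 57.8% and 66.4%. For replicate 2 the shares were 77.4% and 84.1% against 58.8% and 70.8%. The median observed-over-expected CpG ratio within 500 bp was 0.855 at gap promoters and 0.767 where all 4 libraries covered the TSS. Whether H3K4me3 width or CpG content accounts for the acetylation shares was not tested.

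**Figure D3:**
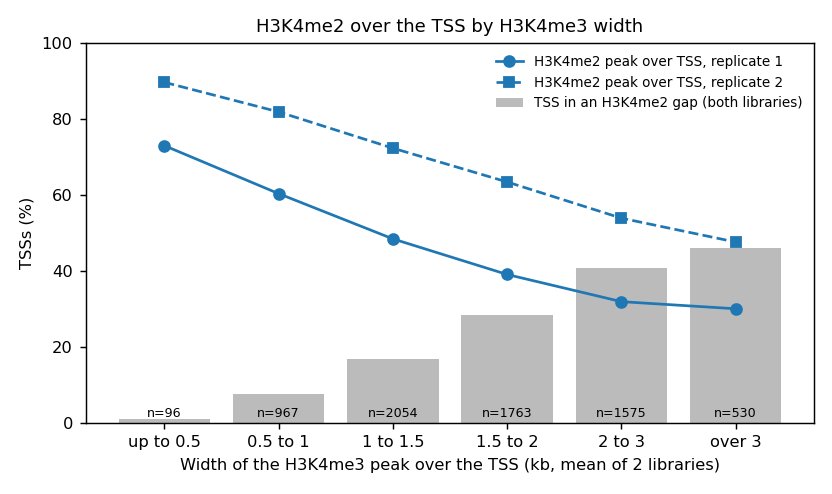
Bars give the percent of TSSs with H3K4me3 over them in both libraries, whatever their promoter class, that lie in an H3K4me2 gap, and lines the percent with an H3K4me2 peak over the TSS in each library, by the width of the H3K4me3 peak over the TSS in kb (mean of 2 libraries, n above the axis). Gaps rise from 1.04% to 46.0% from the narrowest to the widest peaks while H3K4me2 over the TSS falls in both libraries.

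The 6 genes with both marks and the widest gaps were PCF11, BCL2, LARP1, SMC4, CEP95 and HNRNPA1. PCF11, a factor for transcript cleavage and termination (ENSG00000165494, chromosome 11, 83156988 to 83187451, TSS at 83157131 on the plus strand), had 2299 and 2309 bp free of H3K4me2 around its TSS. Within 3 kb of that TSS its H3K4me3 covered 4048 and 4215 bp and its H3K4me2 2183 and 2211 bp. LARP1, an RNA-binding protein that controls translation of ribosomal protein mRNAs (ENSG00000155506, chromosome 5, TSS at 154755377), had 2217 and 2312 bp free. BCL2, the antiapoptotic protein and a target of the MLL fusion (chromosome 18, TSS at 63319769, minus strand), had 2547 and 1986 bp free, with 4648 and 4639 bp of H3K4me3 against 3454 and 3615 bp of H3K4me2 within 3 kb. SMC4, a condensin subunit, had 2397 and 2121 bp free. HNRNPA1, a splicing factor, had the least even pair, 2783 and 1514 bp. CEP95, a centrosomal protein, had 2182 and 2138 bp free, and its start lies 688 bp from that of DDX5, which is described with the promoters without H3K4me2, so both genes share one H3K4me3 domain. All 6 had H3K27ac within 1 kb in both libraries.

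At other promoters H3K4me2 ran far past H3K4me3. At KIF21B, a kinesin motor gene (chromosome 1, TSS at 201023714), H3K4me2 covered 8507 and 8789 bp within 5 kb of the TSS and H3K4me3 1584 and 1878 bp. SELPLG, the P-selectin ligand of leukocytes (chromosome 12, TSS at 108633894), had 7901 and 8565 bp of H3K4me2 against 1660 and 1494 bp of H3K4me3. For NLRP3, the inflammasome sensor of myeloid cells, the values were 7741 and 7892 bp against 2877 and 2389 bp. ZC3H12A, an RNase that degrades inflammatory mRNAs, DHRS3, a retinaldehyde reductase, and SATB1, a chromatin organiser, completed the 6 genes with the largest excess, from 5085.5 bp at SATB1 to 6917 bp at KIF21B as means of 2 libraries. SATB1 also had a gap at its TSS. The start of another gene lay 189 bp from that of DHRS3, 194 bp from ZC3H12A and 247 bp from KIF21B. The H3K4me2 there cannot be assigned to the named gene alone. H3K27ac was absent in both libraries at ZC3H12A and DHRS3 and present in both at SELPLG, NLRP3 and SATB1. Over all genes, H3K4me2 bp exceeded H3K4me3 bp within 5 kb in every library pair at 10271 (51.4%), and the reverse held at 681 (3.41%). These counts used the full lists, of which those of H3K4me2 cover more bp, and were not repeated with lists of equal length. The same limit holds for the shares of this kind given for the gene lists below.

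Promoters with H3K4me2 only had a different shape. H3K4me2 peaked over the start itself, at 75.5% of these promoters 150 bp downstream in replicate 1 and 84.5% 100 bp downstream in replicate 2, with no dip. Where a peak covered the TSS, its median width was 1108 and 1224 bp, against 1990 and 2103 bp at promoters with both marks. Their flanks held 6.95% and 7.82% H3K4me2, against 25.4% in both libraries at promoters with both marks. Most of these promoters lay far from H3K4me3: 1629 of the 1878 (86.7%) lay more than 10 kb from the nearest H3K4me3 peak, and 84 had H3K4me3 at another annotated start of the same gene. Near the window's limit, 38 had their nearest H3K4me3 peak at 1000 to 1500 bp and 13 at 1500 to 2000 bp. Their H3K4me2 peaks ranked lower by score, with a median percentile of 54.1 and 67.5 within their lists against 75.4 and 75 at promoters with both marks. The Corin lists, which did not define them, had H3K4me2 at 1857 of the 1878 in each library (98.9%, against 62.3% and 62.0% of all promoters). Corin H3K4me3 was found at 165 and 144 (8.79% and 7.67%, against 50.8% and 51.0% of all promoters).

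H3K4me2-only promoters were divided into CpG-rich ones and others, and H3K27ac was rarer at the CpG-rich ones. Most promoters of both groups lacked it. A promoter counted as CpG-rich when the observed-over-expected CpG ratio within 500 bp of the TSS was at least 0.6 and the GC content at least 50%. The 1281 CpG-rich promoters with H3K4me2 only had H3K27ac at 5 and 8 promoters (0.390% and 0.625%), whereas the 597 others had it at 113 and 112 (18.9% and 18.8%). Among promoters with both marks the shares were 58.1% and 68.9% in the 8812 CpG-rich and 63.1% and 70.2% in the 814 others. H3K4me2 itself was not lower at the CpG-rich H3K4me2-only promoters: the median bp within 1 kb were 951 and 1156, against 809 and 920 at the others. The median CpG ratio was 0.730 for H3K4me2 only, 0.802 for both marks and 0.330 for neither. H3K4me2-only promoters were 9.89% of the 12951 CpG-rich and 8.51% of the 7019 other promoters, while both marks were present at 68.0% of the CpG-rich and 11.6% of the others.

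**Figure D4:**
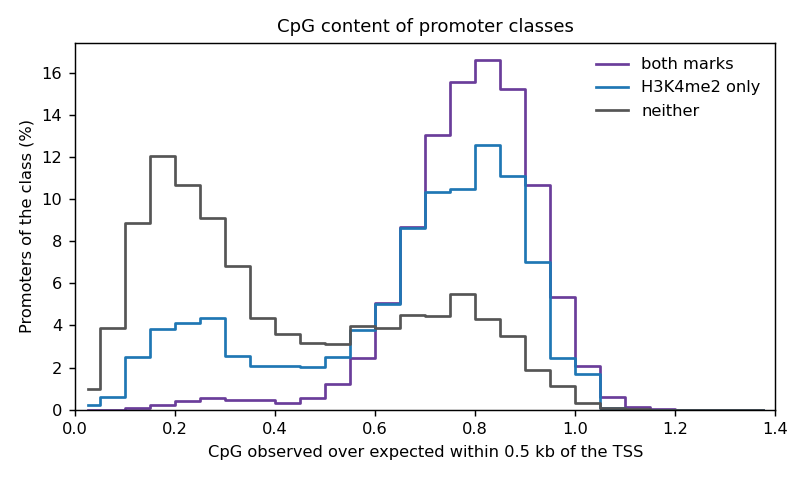
Distribution of the observed-over-expected CpG ratio within 0.5 kb of the TSS (bins of 0.05) as percent of the promoters of each class. Promoters with both marks form 1 high peak around their median of 0.802. Promoters with neither form a low peak, highest in the bin from 0.15, with a high shoulder, and their median of 0.330 lies above that peak. H3K4me2-only promoters have a high and a low component.

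In the 250 upstream bases, the median number of CGs was 23 at promoters with both marks (7500 matched), 25 at gap promoters (1463), 21 at H3K4me2-only promoters (1302) and 6 at promoters with neither (5139). Motifs were searched as exact letters on both strands. CCGGAAGT, the core bound by ETS factors such as GABPA, was found in 9.41% of promoters with both marks, 13.2% of gap promoters, 0.845% of H3K4me2-only promoters and 1.01% of promoters with neither, against 5.46% of all 14661. TATAAA occurred in 3.99% of promoters with both marks, 3.76% of gap promoters, 8.45% of H3K4me2-only promoters and 17.1% of promoters with neither, against 9.14% of all. CCAAT was found in 37.1%, 36.6%, 29.0% and 34.3% of the same classes and in 35.3% of all. A match gives the letters only, and no match says nothing of the factor. ZNF100 and CTSG, shown above, illustrate upstream sequence with few CGs in the H3K4me3-only and H3K4me2-only classes, and GATA3 one with many.

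The genes with the most H3K4me2 and no H3K4me3 at any of their starts were headed by ADM, which encodes the vasodilator peptide adrenomedullin (ENSG00000148926, chromosome 11, 10305073 to 10307397, TSS at 10305073). H3K4me2 covered 5221 and 5517 bp within 3 kb of its TSS and neither H3K4me3 nor H3K27ac had a peak there within 1 kb in any DMSO library. ZMYND8, a reader of acetylated chromatin (chromosome 20, TSS at 47356699), had 4461 and 4428 bp and, unlike ADM, H3K27ac over 2001 and 1880 of the 2001 bp around the TSS. HCST, the signalling adapter DAP10 of leukocytes, had 5137 and 5313 bp, with H3K4me3 of 1150 and 1132 bp starting 1851 bp from its TSS. GLIPR1 had 4545 and 4229 bp. H2AC14, a histone gene of the chromosome 6 cluster, had 4366 and 4026 bp with neighbouring histone promoters close by, so its H3K4me2 cannot be assigned to it alone. ENSG00000285938 had 5127 and 4797 bp. The start of another gene lay 226 bp from that of HCST, 1191 bp from ZMYND8, 1220 bp from ENSG00000285938 and 1369 bp from ADM. The same limit as for H2AC14 holds for them.

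Only 37 promoters had H3K4me3 in both libraries and H3K4me2 in neither, and this count moved with the settings: it was 65 without H3K4me2 replicate 1, 141 without replicate 2, 238 with a window of 500 bp, 424 with the highest-scoring 50% of each list and 2332 with 11104 peaks per list. In 13 of the 37 both H3K4me2 libraries had a peak within 3 kb, all of it beyond 1 kb. This was the case for all 8 genes with the widest H3K4me3. Of these, CNOT6L, YY1, DDX5 and STAG2 also met the definition of an H3K4me2 gap. They are counted among the 1807, so the 2 groups overlap. CNOT6L, a subunit of the CCR4-NOT deadenylase (ENSG00000138767, chromosome 4, 77713387 to 77819615, TSS at 77819368 on the minus strand), had H3K4me3 across all 2001 bp around its TSS in both libraries and no H3K4me2 there, with 3635 and 3317 bp of H3K4me2 farther out within 3 kb. YY1, a zinc finger transcription factor (chromosome 14, TSS at 100239144), likewise had H3K4me3 over all 2001 bp and 2493 and 2524 bp of H3K4me2 beyond it. The RNA helicase gene DDX5, the splicing factor gene TRA2B, RCC1, which encodes the exchange factor for RAN, the paraspeckle gene PSPC1, the cohesin gene STAG2 and the transporter gene SLC38A5 also had H3K4me2 in both libraries between 1 and 3 kb from the TSS. H3K4me3 within 1 kb was narrower at some of them, 453 and 245 bp at SLC38A5, 966 and 1016 bp at TRA2B and 1059 and 1161 bp at PSPC1. Within 3 kb the libraries of both marks overlapped at SLC38A5, with 1496 and 1902 bp of H3K4me2 against 1895 and 1940 bp of H3K4me3. Within 5 kb H3K4me2 was the wider mark at CNOT6L, with 6246 and 5729 bp against 3736 and 4488 bp. The libraries also overlapped within 3 kb at STAG2, with 2839 and 1768 bp of H3K4me2 against 2789 and 2614 bp of H3K4me3, a difference that turns to 137.5 bp in favour of H3K4me2 without H3K4me2 replicate 2.

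Most of the other H3K4me3-only promoters had no H3K4me2 in a wider window. No H3K4me2 peak of either library lay within 3 kb at 21 of the 37, and these had narrower H3K4me3. ZNF genes made up 10 of the 21 (ZNF100, ZNF84, ZNF675, ZNF8, ZNF736, ZNF714, ZNF107, ZNF138, ZNF761 and ZNF91), a group singled out after the list was seen. Genes with a ZNF symbol were 27.0% of the 37, 2.85% of promoters with both marks, 0.692% of H3K4me2-only promoters and 2.58% of all. ZNF100 (chromosome 19, TSS at 21767579) had 819 and 1028 bp of H3K4me3, H3K27ac of 263 and 443 bp, and no H3K4me2 within 5 kb. These genes encode repeated zinc finger proteins, lie in clusters of similar copies, and reads of similar sequence may be placed unevenly, which was not tested. CDK11A and CDK11B, also among the 37, are near-identical copies and are uncertain for the same reason. SNRPN and SNURF share 1 start in the imprinted region of chromosome 15, with 1768 and 1904 bp of H3K4me3 within 3 kb and 582 and 602 bp of H3K4me2 beyond 1 kb. Genes on X made up 7 of the 37 (18.9%, against 4.30% of all), among them RLIM, RBMX, COX7B and EIF1AX, and at all 7 some H3K4me2 was present within 3 kb. H3K27ac was found at 21 and 22 of the 37 (56.8% and 59.5%). The shares were 29.6% and 35.0% over all promoters and 58.5% and 69.0% over those with both marks. The Corin H3K4me3 libraries marked 37 and 36 of the 37, against 50.8% and 51.0% of all promoters and 99.3% and 99.4% of those with both marks.

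The gene lists differed in the classes of their promoters. The following 14 lists were drawn up for this tissue and these enzymes with earlier results of the data known, so their shares are a description, to be read against the 48.2% and 9.4% of all promoters with both marks and with H3K4me2 only. Among 18 myeloid transcription factors, 13 had both marks and 3 had H3K4me2 only. CEBPA, the driver of granulocyte fate (chromosome 19, TSS at 33302534), had a gap, with 4735 and 4569 bp of H3K4me3 and 4392 and 4471 bp of H3K4me2 within 3 kb. MYB, which sustains leukaemic self-renewal (chromosome 6, TSS at 135181308), also had a gap, with 4085 and 3933 bp of H3K4me3 against 3642 and 3681 bp of H3K4me2. SPI1, which encodes the myeloid master regulator PU.1, had 2841 and 3081 bp of H3K4me3 and 3353 and 3658 bp of H3K4me2 with no gap. The members with H3K4me2 only included CEBPE, a factor of late granulocytes, and MAF, a factor of macrophages. CEBPE had 2341 and 2041 bp of H3K4me2, H3K27ac in both libraries and its nearest H3K4me3 peak 109253 bp away. ERG had no peak, and IKZF1 was marked by H3K4me3 in both libraries but by H3K4me2 within 1 kb in replicate 2 alone. Gaps were found at 2 of the 13 factors with both marks (15.4%), against 18.7% of all promoters with both marks. Without H3K4me2 replicate 2, gaps numbered 5 of the 13, while over all promoters they went from 1807 to 3436. With lists shortened to the same number of peaks, 10 of the factors had both marks, 1 of them with a gap. Over all promoters these counts were then 5305 and 229.

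Myeloid surface and granule genes were divided between the classes, with 8 of 24 in both marks, 8 in H3K4me2 only, 6 in neither and 2 with differing replicates. The clustered granule genes AZU1, PRTN3 and ELANE on chromosome 19 had both marks, as did CD33, LYZ, CSF3R, FLT3 and PTPRC. CTSG, which encodes the granule protease cathepsin G (chromosome 14, TSS at 24576250), had 2125 and 1882 bp of H3K4me2 within 3 kb, H3K27ac of 532 and 1451 bp within 1 kb and no H3K4me3. MPO, the granule peroxidase, had H3K27ac of 1612 and 2001 bp around its TSS but no H3K4me3, and H3K4me2 within 1 kb in 1 library. The other members with H3K4me2 only were CSF1R, KIT, CD14, CD68, TYROBP, CD86 and ITGAX. TYROBP, the adapter DAP12, had 3005 and 2993 bp of H3K4me2 and H3K27ac in both libraries. KIT, the stem cell factor receptor, had 977 and 1826 bp of H3K4me2 and no acetylation. S100A9, CLEC7A and CD163, genes of mature myeloid cells, had no peak. With lists of 11104 peaks, CTSG, CSF1R, CD14, CD68 and TYROBP were still in the H3K4me2-only class.

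MLL-fusion targets held promoters of both orders. Of the 16 members 12 had both marks, and 7 did with 11104 peaks per list. Over all promoters the number went from 9626 to 5305. At 6 of the 16 (37.5%) both H3K4me3 libraries covered more bp within 5 kb than both H3K4me2 libraries, against 3.41% of all promoters and 5.98% of promoters with both marks. These were HOXA9, HOXA10, PBX3, CDK6, BCL2 and ZEB2. BCL2 was a narrow case, with a difference of -208.5 bp (H3K4me2 minus H3K4me3, SD of the difference 257.7 bp) that turned to 377 bp with the highest-scoring 50% of each list. The share is the highest of the 14 lists, followed by 20.8% of ribosomal protein genes. At the other 10 members (62.5%, against 51.4% of all promoters) H3K4me2 exceeded H3K4me3 in every library pair, and the median difference over the 16 was 599 bp in favour of H3K4me2. At HOXA9 (chromosome 7, TSS at 27165537), the homeobox gene central to this leukaemia, H3K4me3 covered 5620 and 5725 bp of the 6001 bp around the TSS and H3K4me2 2838 and 2826 bp. At PBX3, a partner of HOX proteins, the values were 4110 and 4418 bp against 2812 and 3159 bp. MEIS1, another HOX partner, had both marks almost throughout, 5248 and 5346 bp of H3K4me3 and 5127 and 5389 bp of H3K4me2. HOXA7 went the other way, with 5645 and 6001 bp of H3K4me2 against 2787 and 3277 bp of H3K4me3. Towards the edge of the cluster HOXA6 had H3K4me3 in 1 library within 1 kb, and HOXA5 had no peak within 3 kb, its nearest H3K4me3 peak lying 4995 bp away. PBX3, CDK6 and BCL2 had a gap, and with 11104 peaks per list 0 members did. EYA1 was among the 2 members with H3K4me2 only. The HOXA genes are neighbours and share domains, so they do not count as independent examples.

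Genes of other lineages carried H3K4me2 without H3K4me3 or neither mark. Of 24 lymphoid genes, 1 had both marks (CD4, which monocytic cells also express), 8 had H3K4me2 only and 14 neither. GATA3, the T-cell and breast transcription factor (chromosome 10, TSS at 8054688), had 1552 and 1830 bp of H3K4me2, no H3K27ac, and its nearest H3K4me3 peak 235183 bp away. PAX5, BCL11B, CD8A, IL7R, EBF1, LEF1 and CD79A were the other H3K4me2-only members. Of 16 erythroid and megakaryocyte genes, NFE2 and GATA2 had both marks, TAL1 had H3K4me2 only and 12 had neither. Among 47 developmental transcription factors, 3 had both marks (WT1, DLX2 and FOXA1), 10 had H3K4me2 only and 28 neither. WT1, which is commonly expressed in acute myeloid leukaemia, had 4193 and 3983 bp of H3K4me3 and H3K27ac in both libraries, while NEUROG2, a neurogenic factor, had 2480 and 2806 bp of H3K4me2 and no H3K4me3. PAX6, EN2, FOXC1, FOXD3, GATA6, LHX2, DLX5, POU3F2 and GSC were the other H3K4me2-only members. None of these 10 had H3K27ac, which was present at 6.28% and 6.39% of all H3K4me2-only promoters. Neuronal genes gave 8 of 24 with H3K4me2 only, BDNF with 2839 and 2944 bp among them, and 1 with both, TUBB3. All 18 olfactory receptors and 24 of 27 epithelial and hepatic genes had neither mark. With 11104 peaks in each list, H3K4me2 only was found at 3 lymphoid, 4 developmental and 5 neuronal genes, and at 681 in place of 1878 of all promoters.

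Interferon and inflammation genes had the highest share of H3K4me2-only promoters of the 14 lists when all peaks were used, 11 of 24 (45.8%), with 6 in both marks. That order did not hold with 11104 peaks per list, where 2 of the 24 were H3K4me2 only, against 5 of 24 neuronal, 5 of 24 myeloid surface and granule and 3 of 24 lymphoid genes. The 11 were IFIT1, IFIT2, IFIT3, IRF7, RSAD2, CXCL8, CXCL10, CCL3, CCL5, IL1B and IL6, inducible antiviral genes, chemokines and cytokines. IFIT2 had 773 and 1135 bp of H3K4me2 within 3 kb, CXCL8 1790 and 1221 bp and IL1B 555 and 585 bp, all lower than at TNF, which had both marks, 4224 and 3660 bp of H3K4me2 and 2189 and 2235 bp of H3K4me3. H3K27ac was found in both libraries at CCL5 alone among the 11. Over all H3K4me2-only promoters each H3K27ac library had a peak at 6.28% and 6.39%. CXCL8 and CCL5 were the 2 that stayed H3K4me2 only with 11104 peaks per list, and 14 of the 24 genes then had no peak. IRF1, LTB, NFKBIA and TNFAIP3 also had both marks.

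Housekeeping groups lay at the other end. All 24 genes of DNA replication and the cell cycle had both marks, as did 22 of 24 cytosolic ribosomal protein genes, and RPL32 and RPS3 had replicates that differed. The ribosomal protein genes had the largest share of gaps, 16 of the 22 with both marks (72.7%), against 18.7% of all promoters with both marks. Within 5 kb H3K4me2 exceeded H3K4me3 in every library pair at 14 of the 24 ribosomal protein genes, with a median difference of 386.5 bp over the list. That is 58.3%, against 51.4% of all promoters and 76.8% of those with both marks. The reverse held at 5 (20.8%, against 3.41% and 5.98%). RPS6 and RPL4 are among those 5. RPS6, a protein of the small subunit (chromosome 9, TSS at 19380236), had 3021 and 3085 bp of H3K4me3 and 2718 and 2364 bp of H3K4me2 within 3 kb, and RPL4 3661 and 3651 bp against 2543 and 2612 bp. The gap count was 16 without H3K4me2 replicate 1 and 19 without replicate 2. With 11104 peaks per list, 11 ribosomal protein genes had both marks, 3 of them with a gap, and 5 had H3K4me3 only. In the replication list 5 of 24 had a gap (CDT1, ORC1, MCM5, RFC2 and CCNA2), and without H3K4me2 replicate 2 the number was 12. With 11104 peaks per list, 7 of the 24 replication genes had both marks, 0 of them with a gap, and 8 had H3K4me3 only. Over all promoters the same reduction took both marks from 9626 to 5305, gaps from 1807 to 229 and H3K4me3 only from 37 to 2332. Within 5 kb H3K4me2 exceeded H3K4me3 in every library pair at 15 of the 24 replication genes (62.5%), and the reverse held at MCM7 and CDC6 (8.33%), against 76.8% and 5.98% of promoters with both marks. H3K27ac was present at 24 and 23 of the 24 ribosomal protein genes and at 20 and 18 of the 24 replication genes, against 58.5% and 69.0% of all promoters with both marks and 29.6% and 35.0% of all promoters. Replication-dependent histone genes, also highly expressed in dividing cells, had both marks at 21 of 24 but a gap only at H2AC6. Their H3K4me2 was broad, with a median of 3501 bp within 3 kb against 1544 bp of H3K4me3, and within 5 kb it exceeded H3K4me3 in every library pair at 22 of 24 (91.7%, against 51.4% of all promoters and 76.8% of promoters with both marks). These genes are short and packed side by side, so windows overlap, and near-identical copies make single values uncertain.

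The enzymes that write, read and erase H3K4 methylation mostly had both marks (22 of 24), and 9 of the 22 had a gap (40.9%, against 18.7% of all promoters with both marks). KDM1A, which encodes LSD1, had 1952 and 1871 bp of H3K4me3 and 2227 and 1804 bp of H3K4me2 within 3 kb, with a gap. KMT2A, whose fusion drives this line, had 3235 and 3382 bp of H3K4me3 and 4381 and 4894 bp of H3K4me2 without one. At KMT2C, an enhancer methyltransferase gene, H3K4me3 (1647 and 1406 bp) exceeded H3K4me2 (705 and 459 bp) in every library pair, as it did at RCOR3 and KDM6A within 5 kb. These are 3 of the 24 (12.5%, against 3.41% of all promoters and 5.98% of those with both marks), and H3K4me2 exceeded H3K4me3 in every pair at 12 of the 24. RCOR2, a corepressor partner of LSD1, had H3K4me2 only, with 1716 and 2133 bp. KDM5A had no peak of either mark within 3 kb, and its nearest H3K4me3 peak was 253385 bp away. CCDC77, the neighbouring gene, had no peak of either mark within 5 kb either, and whether the region was left out upstream of the lists was not tested. The gap count in this list was 12 without H3K4me2 replicate 1 and 14 without replicate 2. With 11104 peaks per list, 14 of the 24 had both marks, 2 of them with a gap, and 3 had H3K4me3 only. Over all promoters these counts were then 5305, 229 and 2332.

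**Figure D5:**
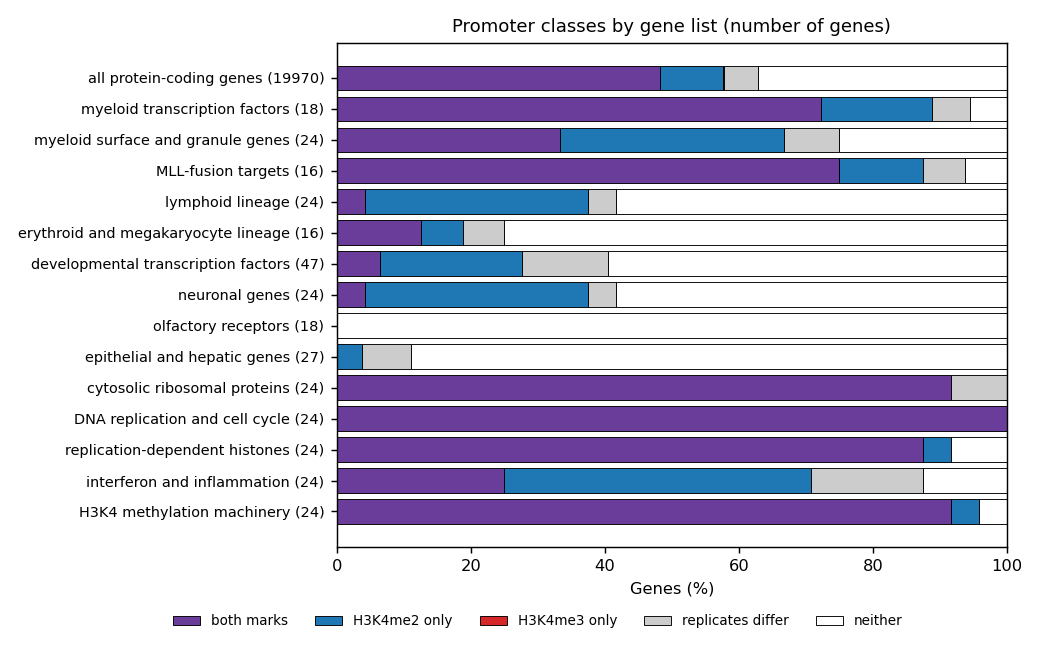
Percent of genes in each promoter class for all protein-coding genes and for the 14 gene lists, with the number of genes in brackets. Replication and ribosomal protein genes are nearly all in both marks, interferon and inflammation genes have 45.8% with H3K4me2 only, and olfactory receptors have no mark.

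Long non-coding RNA (lncRNA) promoters had both marks at 2690 (14.3%) and H3K4me2 only at 1113 (5.93%) of 18756 genes. The order of these classes was the opposite away from protein-coding genes. Of the 13925 lncRNA genes whose TSS lay over 5 kb from a protein-coding TSS, 609 (4.37%) had H3K4me2 only, 429 (3.08%) had both marks and 17 H3K4me3 only. The median CpG ratio of these distant lncRNA genes was 0.408 with H3K4me2 only and 0.714 with both marks. Counted over peaks instead of genes, 96.9% to 98.3% of H3K4me3 peaks overlapped an H3K4me2 peak, in each of the 4 pairings of libraries. Of H3K4me2 peaks, 40.4% to 46.2% overlapped an H3K4me3 peak. The H3K4me2 lists are the longer ones (30896 and 32299 peaks against 11104 and 11343), which limits the second share. Overlap was not computed with lists of equal length, so the 2 shares cannot be compared directly. H3K4me2 peaks that overlapped H3K4me3 had median widths of 1246 to 1505 bp, the others 542 to 555 bp. Between 23.1% and 32.0% of H3K4me3 peaks touched 2 or more H3K4me2 peaks.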

How the data were processed

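CUT&RUN libraries (kit with pAG-MNase, paired 150 bp reads, at least 5000000 reads per sample, per the labels' protocols) were used as peak lists, 1 per library. The submitters' processing notes name Trim Galore, Bowtie2, Picard and MACS2 and the builds GRCh38 and hg38, without roles or versions. In the 12 lists, 0 of 292523 peaks ran over the end of an hg38 chromosome. Each peak carries a score deposited by the authors (whole numbers, 50 or more) whose definition is not given in the sources used here, and this score only ranked peaks inside their own list. Read depth per library is unknown, so no interval or floor was computed. The IgG, LSD1, retinoic acid and H3K27ac Corin libraries were not used here, and no comparison has an antibody background.

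TSSs were the canonical starts of GENCODE release 44, and windows and overlap (at least 1 bp) were computed with Python 3.11.15, numpy 2.4.6 and pandas 2.3.3. Class calling was tested on simulated peaks. Tests were exact two-sided permutations over libraries, 1 value per library. Members and lists were chosen with earlier results of these data known. Named genes were the members of the 14 lists (334 entries) and genes chosen by size, of overlapping windows the larger. The 8 H3K4me2-only genes with most H3K4me2 within 3 kb and no H3K4me3 at any start were chosen. So were the 8 H3K4me3-only genes with most H3K4me3 within 3 kb. Among genes with both marks, the 6 with the widest gaps and the 6 with the largest H3K4me2 excess within 5 kb were taken. Others were named after their values were seen. Some genes that met these rules are not reported here. Alternatives covered list length, TSS set, windows, overlap and each library left out.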

Additional observations from a re-analysis of the deposited data

How the results depend on the processing

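The flank difference, the flank-to-core ratio and the H3K4me2 excess at promoters with both marks kept their direction under every alternative run. With 11104 peaks per list the core difference was -13.0 points, and the promoters with both marks numbered 5305, H3K4me2 only 681, H3K4me3 only 2332 and gaps 229. With the highest-scoring 50% of each list these 4 counts were 4317, 3260, 424 and 545. Restricting to TSSs without another gene within 5 kb tests fewer promoters and gave 4563 with both marks, 19 with H3K4me3 only and 673 gaps. A core of 250 bp gave a core difference of -0.97 points. H3K4me3-only promoters numbered 238 with a window of 500 bp, 22 with 2000 bp and 64 with at least 200 bp of peak. Leaving out each library in turn gave core differences from -2.52 to 6.64 points, flank differences from 9.33 to 9.52 points, log2 ratio differences from 1.45 to 1.76, an H3K4me2 excess from 819.3 to 1003 bp, 9654 to 9950 promoters with both marks, 1922 to 2257 with H3K4me2 only, 44 to 141 with H3K4me3 only and 1882 to 3436 gaps. For the 28 genes named by size, the shorter lists gave 56 values, of which 24 moved by less than the spread between replicates, 30 moved more and 2 changed sign, BCL2 (377 bp) and LARP1 (32.5 bp), both with the highest-scoring 50%. With a library left out, STAG2 ranged from -933.5 to 137.5 bp, the last without H3K4me2 replicate 2. Other causes of these shifts were not tested. Pairing libraries by replicate number (replicate block) left the differences at 2.06 and 9.42 points, 1.61 and 917.5 bp, with exact p = 1.0 and, for the other 3, p = 0.5, the smallest that 4 sign arrangements allow. The deviations of same-numbered libraries from their group means had r = 0.159 over 19970 genes, and the labels do not say that a number marks a shared culture. The addition of the Corin libraries was chosen after seeing the data.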
